A study of Mus musculus with 12 samples.

Results

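The 9 genes described here encode the sensors, the adaptor, the proteases and the effectors of the inflammasome: Nlrp3, Nlrc4, Naip5, Aim2, Pycard, Casp1, Casp4, Gsdmd and Il18. They were chosen by their role in the pathway, at a time when earlier results of these arrays were known, so shares over the 9 genes describe them and are not independent evidence. Each gene was read from the gene-level transcript cluster annotated to it alone, which existed for 7 of the 9 genes among 16755 clusters. Nlrc4 and Naip5 had no such cluster and were read as the median of the exon-level probesets annotated to them alone, 12 for Nlrc4 and 9 for Naip5.

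RNA was measured on Affymetrix mouse exon arrays in 3 samples labelled Lrrc33-/- (called KO-labelled) and 3 samples labelled Lrrc33+/+ (called WT). All samples were freshly isolated microglia, the resident macrophages of the brain, sorted from mice aged 3 weeks as CD45low, CD11b+, CD39+ and Ter119- cells. Lrrc33 is an older symbol of Nrros, whose protein presents latent TGF-beta1 on myeloid cells. The labels give no allele structure, strain or number of mice per sample. Every p-value below therefore reflects no more than the variation among these 6 samples, part of which may be technical.

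An inflammasome is a protein platform that assembles in the cytosol when a sensor meets a microbial product or a sign of cell damage. The sensor recruits caspase-1, often through the adaptor ASC, and the caspase then cuts the precursors of IL-1beta and IL-18 and the pore-forming protein gasdermin D, whose pores release the cytokines and can lyse the cell. In microglia the pathway is known above all for responses to infection, injury and protein aggregates. The arrays measured RNA only, and none of these cleavage steps is seen in them.

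Some facts of the whole series touch the values below. Nrros itself was not lower, with 9.86, 9.89 and 9.83 (log2) in the KO-labelled samples and 9.94, 9.88 and 9.60 in the WT samples (difference 0.05, SE 0.09, limma, Benjamini-Hochberg adjusted p = 0.759). Since neither the allele structure nor the positions of the probes are given, this value checks nothing about the labels. WT replicate 3 stood apart in RNA of the sex chromosomes: Xist, which is transcribed from the inactive X chromosome, was at 7.96 there and at 12.24 to 12.46 in the other 5 samples, and the Y-linked Eif2s3y was at 7.72 against 3.06 to 3.15. Of 13 measured microglial markers, 10 were lower and 0 higher in the KO-labelled samples, among them Sall1, a transcription factor of microglial identity (5.50 ± 0.05 in KO-labelled and 11.28 ± 0.06 in WT samples, log2, SD, n = 3 each). Of 9 markers of border-associated macrophages, 8 were higher and 0 lower. Over all clusters, 14.4% were higher and 14% lower. RNA of genes for the sorting markers differed too (limma). Itgam (CD11b) was lower (-1.81, adjusted p = 5.54e-06), as was Entpd1 (CD39) (-0.36, adjusted p = 0.00789). Ptprc (CD45) was higher (0.46, adjusted p = 0.00308). In bulk samples such as these, fewer cells of a type and less RNA per cell cannot be told apart.

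Promoter sequence is shown for 4 genes: Nlrc4, which had the largest difference, Aim2 and Pycard, which were both lower, and Casp4, which did not pass the test. Each stretch is the 250 bases before an annotated transcription start, from RefSeq on GRCm38.p6, printed 5′ to 3′ along the gene. Such sequences were matched for 8 of the 9 genes, and none was used for Gsdmd. Capitals mark matches, on either strand, to any of 8 short motifs: the interferon-stimulated response element core (GAAA, any 2 bases, GAAA), the gamma-activated site TTCNNNGAA, the PU.1 core GAGGAAGT, an NF-kB motif (GGG, any 3 bases, TTCC), the AP-1 motif TGANTCA, the cyclic AMP response element TGACGTCA, the SMAD palindrome GTCTAGAC and the TATA box TATAAA.
Nlrc4, chr17:74459109-74459358, minus strand: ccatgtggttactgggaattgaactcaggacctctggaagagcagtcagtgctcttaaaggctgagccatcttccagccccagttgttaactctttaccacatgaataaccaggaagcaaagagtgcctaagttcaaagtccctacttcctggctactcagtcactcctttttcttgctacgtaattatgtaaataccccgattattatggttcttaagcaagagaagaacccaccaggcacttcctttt
Aim2, chr1:173420354-173420603, plus strand: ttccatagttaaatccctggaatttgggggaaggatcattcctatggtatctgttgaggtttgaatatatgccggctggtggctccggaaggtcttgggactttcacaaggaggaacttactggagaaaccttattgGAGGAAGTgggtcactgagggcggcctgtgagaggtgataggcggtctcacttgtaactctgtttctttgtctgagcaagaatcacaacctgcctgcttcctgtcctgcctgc
Pycard, chr7:127993868-127994117, minus strand: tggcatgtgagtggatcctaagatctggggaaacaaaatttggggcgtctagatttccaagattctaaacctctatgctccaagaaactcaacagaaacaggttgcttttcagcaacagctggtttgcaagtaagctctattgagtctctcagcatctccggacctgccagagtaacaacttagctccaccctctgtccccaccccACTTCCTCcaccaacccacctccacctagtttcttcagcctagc
Casp4, chr9:5308599-5308848, plus strand: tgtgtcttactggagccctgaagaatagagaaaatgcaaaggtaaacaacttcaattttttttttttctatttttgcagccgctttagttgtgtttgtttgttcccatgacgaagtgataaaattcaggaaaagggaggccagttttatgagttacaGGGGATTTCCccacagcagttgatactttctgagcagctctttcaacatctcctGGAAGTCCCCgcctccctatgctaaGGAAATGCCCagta

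The Aim2 stretch held the PU.1 core 113 to 106 bases before the start, and the Pycard stretch held it on the other strand, as ACTTCCTC, 44 to 37 bases before the start. PU.1 is the transcription factor that sets the myeloid lineage, and 2.44% of 32851 promoters of the same length held this core. Casp4 had 3 matches to the NF-kB motif, which stood in 4.65% of promoters. Naip5 and Il18 each held 1 TATA box match, at 236 to 231 and at 175 to 170 bases before the start, against 12.4% of promoters. None of the 8 motifs matched in the windows of Nlrc4, Casp1 or Nlrp3. A match is a description of letters and not evidence of a bound factor, and a missing match says only that these letters are not in the window.

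Among the 9 genes, 3 were higher in the KO-labelled samples (Nlrc4, Casp1 and Il18), 4 were lower (Pycard, Naip5, Aim2 and Nlrp3) and 2 did not pass the test (Casp4 and Gsdmd). Of the 7 genes read at the gene level, 2 were higher and 3 lower, which is 71.4% of them, beside 28.4% of all clusters called in either direction (14.4% higher and 14% lower). Both genes read from the exon level passed, beside 15.9% of the 22184 genes measured that way (8.38% higher and 7.53% lower). The groups did not overlap for 5 of the 7 genes read at the gene level, beside 42.3% of all clusters (20.4% higher and 21.9% lower). For both genes read from the exon level the groups did not overlap either, beside 33.7% of genes measured that way (16.8% higher and 16.9% lower). The median difference over the 9 genes was -0.13 (KO-labelled minus WT, log2), beside -0.02 over all clusters, and the median size of the difference was 0.48, beside 0.13 over all clusters. Both medians over the 9 genes include the exon-level values of Nlrc4 and Naip5, whereas those over all clusters are at the gene level only. The set held changes in both directions, and Naip5 and Nlrc4, whose proteins form a single complex, had opposite ones.

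**Figure D1:**
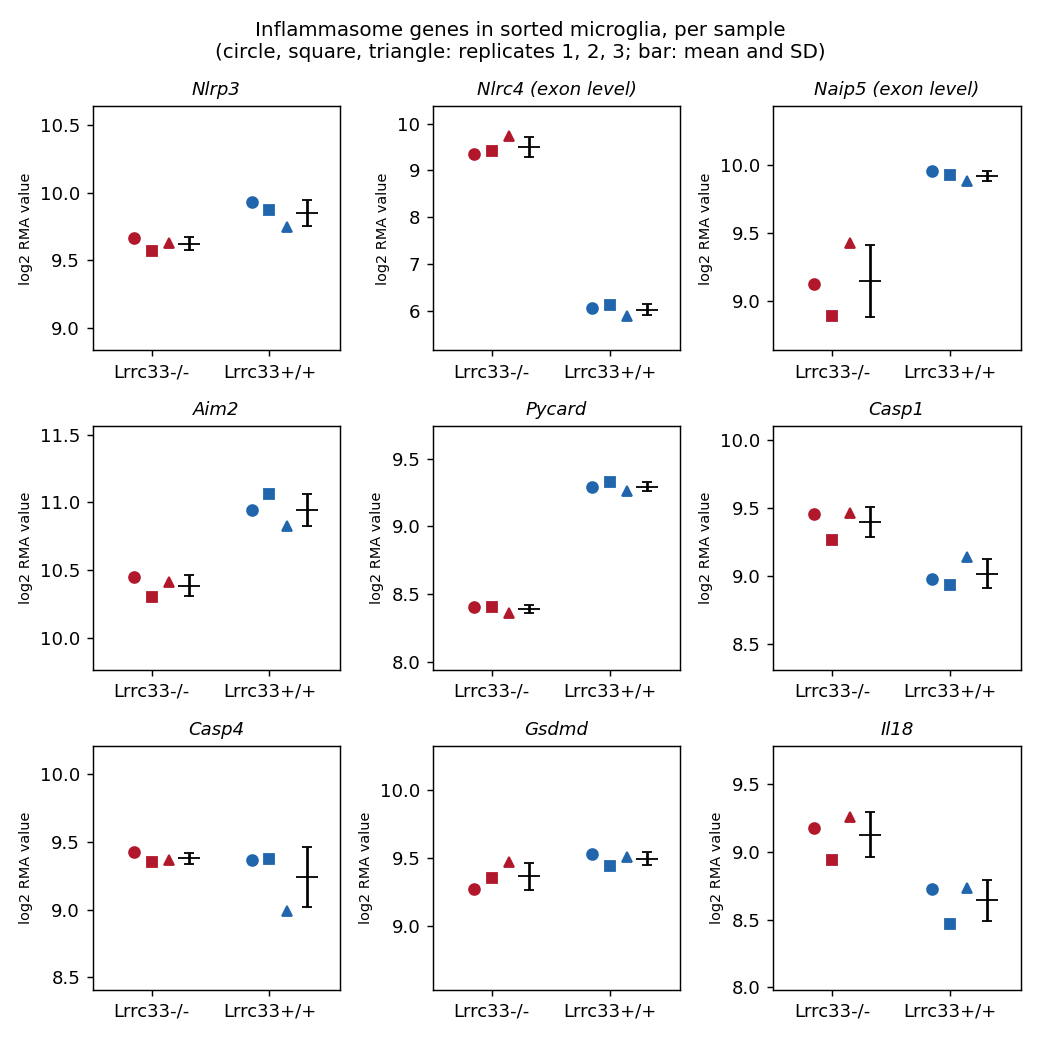
Log2 RMA value of each of the 9 inflammasome genes in every sample, with Lrrc33-/- samples left of Lrrc33+/+ samples in each panel and an axis of its own per gene; circles, squares and triangles are replicates 1, 2 and 3, and bars give the mean and SD (n = 3). Nlrc4 lies between 9.34 and 9.74 in Lrrc33-/- samples, above every Lrrc33+/+ sample (5.89 to 6.12), Pycard lies below every Lrrc33+/+ sample, and the groups overlap for Casp4 and Gsdmd.

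Nlrc4 encodes the platform protein that NAIP receptors engage after they bind bacterial flagellin or parts of secretion systems. Its level was 9.34, 9.41 and 9.74 (log2, exon-level median) in KO-labelled replicates 1, 2 and 3, against 6.06, 6.12 and 5.89 in the WT samples. Every KO-labelled sample stood far above every WT sample. The difference was 3.48 (SE 0.13, 95% interval 3.17 to 3.79), an 11.1-fold higher level (limma over 22184 genes, Benjamini-Hochberg adjusted p = 4.83e-06). A larger rise was seen in 13 of those genes. All 12 Nlrc4 probesets were higher on their own, with differences of 1.44 to 4.50 and a median of 3.64, beside 4.75% of all 1236087 probesets called (2.59% higher and 2.16% lower). None of the 12 overlapped between groups, beside 23.4% of all probesets without overlap (12.1% higher and 11.4% lower). In 6 of the 12 probesets the WT mean lay below the median of all probesets (5.82), where RMA compresses differences; for 1 of them the KO-labelled mean did too.

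The 12 Nlrc4 probesets differed in size of change. The one with the smallest difference, probeset 5328817, was at 10.37, 10.51 and 10.51 in the KO-labelled samples and at 8.96, 9.18 and 8.93 in the WT samples. Its difference of 1.44 (SE 0.15) passed the test over all probesets (adjusted p = 0.00214), and WT signal was well above the median of all probesets there. The one with the largest difference, probeset 5378434, was at 8.97, 8.70 and 9.11 in the KO-labelled samples and at 4.75, 4.88 and 3.66 in the WT samples (difference 4.50, SE 0.33, adjusted p = 0.000463). The spread of WT values was wider at this dim probeset than at the bright one. Across the 11 probesets bright enough to be used, exon usage differed between groups (limma diffSplice F test, adjusted p = 9.21e-11), with probeset 5328817 at -2.19 relative to the other probesets of the gene. Exon usage was called for 31.6% of 16692 genes tested, so the call by itself does not set Nlrc4 apart. The test takes the spread as equal among a gene's probesets, and on simulated data with unequal spreads it made more false calls than the threshold allows, which limits the exon usage calls of Nlrc4, Casp1 and Casp4.

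Neutrophils and monocytes also carry Nlrc4 RNA, and their markers were measured in the same samples. None of 9 neutrophil markers passed the test, and their mean level ran from 6.01 to 7.31 (log2) in the KO-labelled samples and from 6.83 to 7.97 in the WT samples. S100a8, an abundant neutrophil gene, was at 7.35, 5.99 and 8.58 in the KO-labelled samples against 7.41, 9.20 and 8.56 in the WT samples. The groups overlapped for S100a8 and for the mean of the list, and the part of neutrophil RNA in the Nlrc4 difference was not tested. Of 6 monocyte markers, 4 were lower, among them Ccr2 (-0.83, adjusted p = 0.000273), 1 was higher (F13a1, which encodes a clotting factor subunit also made by macrophages, 2.09, adjusted p = 9.06e-07) and 4 were dim in both groups (below the median of all clusters, 6.72). Over all clusters, 14.4% were higher and 14% lower. The border-associated macrophage markers other than Lyve1 (0.12, adjusted p = 0.560) were higher, as Nlrc4 was. The mean level of the whole list, Lyve1 included, ran from 10.95 to 11.07 in the KO-labelled samples and from 8.57 to 8.68 in the WT samples. The part of these markers' cells in the Nlrc4 difference was not tested.

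Naip5 encodes the receptor that binds flagellin and opens NLRC4. It moved opposite to Nlrc4, with 9.13, 8.89 and 9.42 (log2, exon-level median) in the KO-labelled samples against 9.96, 9.93 and 9.88 in the WT samples. The groups did not overlap, and KO-labelled samples spread more (SD 0.27) than WT samples (SD 0.04). The difference was -0.78 (SE 0.14, 95% interval -1.11 to -0.45), a 1.71-fold lower level (adjusted p = 0.00828). Of its 9 probesets, 8 were negative and did not overlap between groups, beside 11.4% of all probesets lower without overlap. But only 1 passed the test over all probesets (4516353, -0.70, adjusted p = 0.0471), beside 2.16% of all probesets called lower. Probeset 4869941 was the only positive one, with 7.06, 6.35 and 6.83 in the KO-labelled samples against 6.50, 6.43 and 6.52 in the WT samples.

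The NAIP genes are near-identical copies, and signal at probes of one can come from RNA of another, so the Naip5 value is uncertain as a value of that gene alone. A pair of gene-level clusters is annotated to Naip5 and Naip6 together, and both were lower: cluster 6815523 differed by -0.79 (SE 0.09, adjusted p = 0.000582) and cluster 6815529 by -0.78 (SE 0.10, adjusted p = 0.000952). These clusters were looked at after Naip5 was found to have no cluster of its own. Naip2, the receptor for the inner rod protein of secretion systems, had a gene-level cluster of its own and was at 8.14, 7.88 and 8.22 in the KO-labelled samples against 8.72, 8.79 and 8.69 in the WT samples (-0.65, SE 0.09, adjusted p = 0.00182). The NAIP copies that could be read were therefore lower together, while the gene for their shared platform protein was higher.

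Aim2 encodes a sensor of double-stranded DNA in the cytosol. It was at 10.45, 10.30 and 10.41 in the KO-labelled samples and at 10.94, 11.06 and 10.82 in the WT samples. All KO-labelled samples lay below all WT samples. The difference was -0.56 (SE 0.08, 95% interval -0.74 to -0.37), a 1.47-fold lower level (adjusted p = 0.00159). All 11 of its probesets were negative, between -0.87 and -0.35, and 10 did not overlap between groups, beside the same 11.4% of all probesets. Of the 11, 3 passed the test over all probesets, beside 2.16% of all probesets called lower.

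Nlrp3 encodes the sensor that answers to potassium efflux, crystals and other signs of damage. It was at 9.67, 9.57 and 9.63 in the KO-labelled samples and at 9.93, 9.87 and 9.75 in the WT samples. The groups did not overlap, but the nearest samples were close together. The difference was -0.23 (SE 0.07, 95% interval -0.38 to -0.07), a 1.17-fold lower level, and passed narrowly (adjusted p = 0.0398). All 15 of its probesets were negative, between -0.36 and -0.01, with 0 past the test over all probesets. The call was lost in 9 of 14 alternatives, including the leaving out of any single sample but WT replicate 3 (adjusted p up to 0.127), and the difference stayed between -0.31 and -0.19 in all 14.

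**Figure D2:**
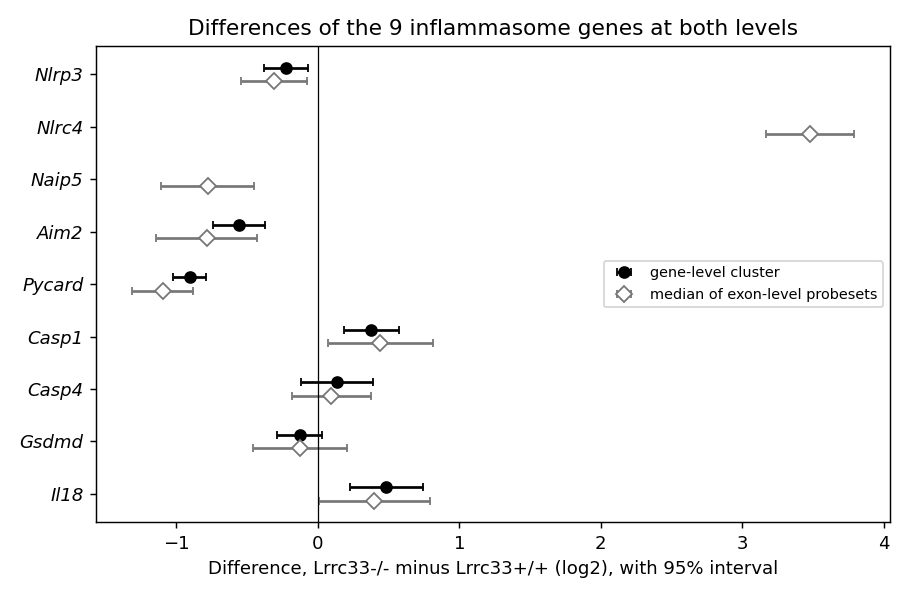
Difference in log2 level, Lrrc33-/- minus Lrrc33+/+, of each inflammasome gene with its 95% interval from limma; filled circles are gene-level values and open diamonds are medians of the exon-level probesets, the only value for Nlrc4 and Naip5. The Nlrc4 interval runs from 3.17 to 3.79, the Pycard interval from -1.02 to -0.79, and the gene-level intervals of Casp4 and Gsdmd include 0.

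Pycard encodes ASC, the adaptor that links pyrin-domain sensors such as NLRP3 and AIM2 to caspase-1. It had the largest fall of the 9 genes and the smallest spread: 8.40, 8.41 and 8.36 in the KO-labelled samples against 9.29, 9.33 and 9.26 in the WT samples. The gap between groups was many times the spread within them (SD 0.03 in each). The difference was -0.90 (SE 0.05, 95% interval -1.02 to -0.79), a 1.87-fold lower level (adjusted p = 1.94e-05), and it lay between -1.10 and -0.86 in all 14 alternatives. All 5 probesets were negative without overlap, again beside 11.4% of all probesets. Of the 5, 3 passed the test over all probesets (-1.10, -1.06 and -0.97), beside 2.16% of all probesets called lower. The adaptor and both of the pyrin-domain sensors among the 9 genes were thus lower, though Nlrp3 only by a small margin.

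Casp1 encodes the protease at the centre of the canonical inflammasome. It was at 9.45, 9.27 and 9.47 in the KO-labelled samples and at 8.97, 8.94 and 9.14 in the WT samples. The groups did not overlap. The difference was 0.38 (SE 0.08, 95% interval 0.18 to 0.57), a 1.30-fold higher level (adjusted p = 0.0127). The call was lost when the gene was read as the median of its exon-level probesets (0.44, adjusted p = 0.110). Of 15 probesets, 14 were positive, and 1 passed the test over all probesets (4850239, 0.78, adjusted p = 0.0330), beside 2.59% of all probesets called higher.

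A single Casp1 probeset ran the other way. Probeset 5553637 was at 6.52, 6.20 and 6.25 in the KO-labelled samples and at 7.06, 6.59 and 6.75 in the WT samples (-0.47), which did not pass the test over all probesets (adjusted p = 0.239). Relative to the other 13 probesets used it stood at -0.97 (adjusted p = 9.2e-05). Exon usage of Casp1 differed between groups (F test, adjusted p = 0.00375), as it did for 31.6% of genes tested. That call was lost without KO-labelled replicate 1 (adjusted p = 0.0513) and without KO-labelled replicate 3 (adjusted p = 0.0722).

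Casp4 encodes the mouse protease also called caspase-11, which binds bacterial lipopolysaccharide directly and starts the non-canonical pathway. It was at 9.42, 9.35 and 9.36 in the KO-labelled samples and at 9.36, 9.37 and 8.99 in the WT samples. The groups overlapped, and WT replicate 3 was the low sample. The difference of 0.14 (SE 0.11, 95% interval -0.12 to 0.39) did not pass the test (adjusted p = 0.423). Leaving out WT replicate 3 reduced it to 0.01. Probeset 5087805 alone passed the test over all probesets, beside 2.16% of all probesets called lower. It was at 7.89, 7.57 and 7.69 in the KO-labelled samples against 8.61, 8.58 and 8.36 in the WT samples (-0.80, SE 0.16, adjusted p = 0.0358). Of the other 11 probesets, 10 were positive. Exon usage differed (F test, adjusted p = 0.00106), as it did for 31.6% of genes tested. Which part of the transcript probeset 5087805 reads was not analysed here.

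**Figure D3:**
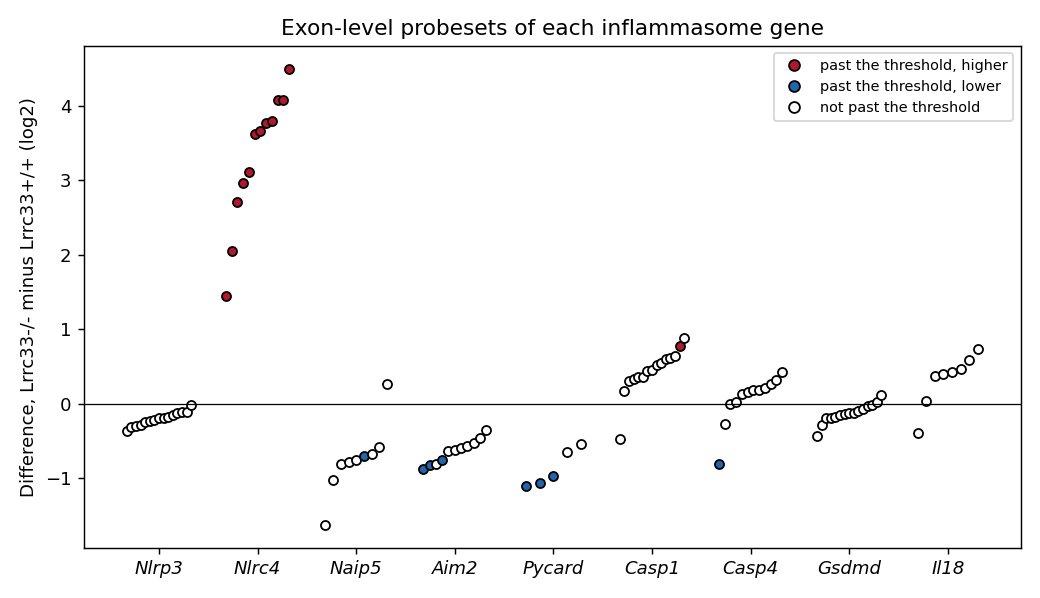
Difference in log2 level, Lrrc33-/- minus Lrrc33+/+, of each exon-level probeset annotated to 1 inflammasome gene, 102 in all, one column of points per gene; filled red points passed the test over all probesets as higher, filled blue points as lower, and open points did not pass. All 12 Nlrc4 probesets are red, 8 probesets of Naip5, Aim2, Pycard and Casp4 are blue, and 1 Casp1 probeset is red.

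Gsdmd encodes gasdermin D, the pore-forming substrate of these caspases. It was at 9.27, 9.35 and 9.47 in the KO-labelled samples and at 9.53, 9.44 and 9.51 in the WT samples. The groups overlapped, and the difference of -0.13 (SE 0.07, 95% interval -0.29 to 0.03) did not pass the test (adjusted p = 0.217). Its 15 probesets lay between -0.44 and 0.12 with 0 past the threshold. Of these probesets, 13 were negative.

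Il18 encodes a cytokine precursor that caspase-1 cuts. It was at 9.18, 8.94 and 9.26 in the KO-labelled samples and at 8.73, 8.47 and 8.73 in the WT samples. The groups did not overlap, and replicate 2 was the lowest of its group in each. The difference was 0.48 (SE 0.11, 95% interval 0.23 to 0.74), a 1.40-fold higher level (adjusted p = 0.0149). The call was lost when the gene was read from its exon-level probesets, as their median (0.40, adjusted p = 0.166) or mean (0.33, adjusted p = 0.194), and without KO-labelled replicate 1 (0.46, adjusted p = 0.0543). Of its 8 probesets, 7 were positive and 0 passed the test over all probesets.

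Within the groups the 9 genes did not vary evenly over samples. KO-labelled replicate 2 was the lowest of its group for 6 of the 9 genes and KO-labelled replicate 3 the highest for 5, while WT replicate 3 was the lowest of its group for 6. The same counts were not made over all clusters, so whether this pattern is particular to the 9 genes was not tested. Without WT replicate 3 all 7 calls held, with Nlrc4 at 3.41 and Pycard at -0.92. Interferon-responsive genes were higher in the KO-labelled samples for 9 of 9 measured, beside 14.4% of all clusters. Their mean level was highest in replicate 3: 8.27, 8.19 and 9.29 in the KO-labelled samples against 6.85, 6.78 and 7.05 in the WT samples. Without KO-labelled replicate 3, Nlrc4 was still higher by 3.36 (adjusted p = 3.36e-05), Casp1 by 0.34 (adjusted p = 0.0445) and Il18 by 0.42 (adjusted p = 0.0486). The part of the interferon-responsive state in these differences was not tested.

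For the gene-level genes with the largest rise and fall, the genes with the nearest profile were found by Euclidean distance over the 6 arrays after each gene's mean was subtracted. Nearest to Il18 among 14853 genes were Fancm (distance 0.114, r = 0.987), Psip1 (0.147) and Rnaseh2b (0.151). Pycard lay nearest to Fbrsl1 (0.0462, r = 0.999), Dlg3 (0.0835) and Blnk (0.0884), an adaptor of B-cell receptor signalling. For Nlrc4 the same measure was run on the exon-level gene values, a step added after it was found to have no gene-level cluster. Its nearest profiles were Ifitm2 (0.295), an interferon-induced membrane protein, Mgl2 (0.323), a lectin of macrophages and one of the border-associated macrophage markers used here, and Cybb (0.360), the catalytic subunit of the phagocyte oxidase. These distances describe 6 arrays that fall into 2 separate groups, so a gene with a group difference of the same size scores as near.

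Beyond the 9 genes, 77 further genes of the pathway were listed in 6 groups. A gene-level cluster of its own existed for 51 of them, of which 15 were higher, 10 lower and 26 did not pass, so that 49.0% were called beside 28.4% of all clusters. Their median difference was -0.01, beside -0.02 over all clusters, and the median size of their difference was 0.19, beside 0.13. A further 14 genes could be read at the exon level only, with 8 higher and 3 lower (78.6%, beside 15.9% of genes measured that way), and 12 were not measured by a feature of their own. The lists were chosen with earlier results of these arrays known, so these shares describe the lists and are not independent evidence.

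The PYHIN family, the relatives of Aim2 that share its DNA-binding domain and include interferon-induced genes, moved opposite to Aim2. Both members with a gene-level cluster were higher, beside 14.4% of all clusters. Ifi203 was at 9.50, 9.07 and 10.12 in the KO-labelled samples against 5.56, 6.15 and 5.81 in the WT samples, a difference of 3.73 (SE 0.27, 13.2-fold, adjusted p = 6.65e-05). Its WT mean of 5.84 was dim (below the median of all clusters, 6.72), so the size of this fold is uncertain. Ifi205 was higher by 1.65 (SE 0.25, 3.14-fold, adjusted p = 0.00261), but dim in both groups (means 5.63 in KO-labelled and 3.97 in WT samples). The 4 members read at the exon level were higher too, beside 8.38% of genes measured that way. Ifi204 was higher by 2.90, Ifi213 by 2.61, Ifi207 by 1.73 and Ifi209 by 1.42 (adjusted p = 2.01e-05 to 0.0478). For Ifi213 and Ifi209, KO-labelled replicate 3 was far above replicates 1 and 2, as it was for the interferon-responsive genes. These genes are close paralogs in a single cluster of the genome, and probes of one may catch RNA of another, so single values are uncertain while all 6 measured relatives lay on the same side.

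Among other sensors, Naip2 was the only 1 of 5 gene-level genes to pass, beside 28.4% of all clusters. Nlrx1, a mitochondrial member of the family, was at 0.10 (adjusted p = 0.392) and Mefv, which encodes pyrin, at -0.04 (adjusted p = 0.703). Mefv was dim in both groups (means 5.12 in KO-labelled and 5.16 in WT samples, below the median of all clusters, 6.72). So were Nlrp6 and Nlrp10, which did not pass either. At the exon level all 5 further sensors passed, beside 15.9% of genes measured that way. Nlrc5, a transactivator of MHC class I genes, was higher by 1.26 (adjusted p = 0.00412) and Nlrc3, described as a brake on innate signalling, by 0.85 (adjusted p = 0.00114). Nlrp1b, a sensor of pathogen proteases, was lower (-1.11, adjusted p = 0.00281), as were Nlrp1a (-0.50, adjusted p = 0.0365) and Naip6 (-0.67, adjusted p = 0.0105). These exon-level genes are named because the list held few of them, after their values were seen.

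Among genes that license the sensors, Nek7, the kinase that binds NLRP3 and is needed for its assembly, had the largest fall. It was at 9.45, 9.37 and 9.42 in the KO-labelled samples against 10.45, 10.43 and 10.44 in the WT samples (-1.03, SE 0.05, adjusted p = 1.1e-05). P2rx7, the ATP-gated channel that triggers NLRP3 through potassium efflux, was higher by 0.57 (SE 0.06, 1.49-fold, adjusted p = 0.000309). Txnip, a thioredoxin-binding protein linked to NLRP3 activation, was lower (-0.48, SE 0.07, adjusted p = 0.00216). In this list of 10 measured genes 3 were higher, 2 lower and 5 did not pass, beside 28.4% of all clusters called. Gbp7, a guanylate-binding protein, was higher by 0.64 (adjusted p = 0.0219) but lost the call without KO-labelled replicate 2 or 3 or WT replicate 2 (adjusted p = 0.0602 to 0.0724). Irgm1 (-0.12, adjusted p = 0.740) and Gbp3 (0.10, adjusted p = 0.689) did not pass.

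The cytokines of the IL-1 family ran in opposite directions. Il1a, which encodes a precursor that is active without inflammasome cleavage, was at 9.50, 9.09 and 9.08 in the KO-labelled samples against 12.01, 12.04 and 11.27 in the WT samples (-2.55, SE 0.22, adjusted p = 0.000176). Il1b, the precursor that caspase-1 cuts, was at 10.22, 10.13 and 10.58 in the KO-labelled samples against 9.53, 9.16 and 8.37 in the WT samples. Its difference was 1.29 (SE 0.28, 2.45-fold, adjusted p = 0.0131), and 0.97 without WT replicate 3, its lowest sample. Both RNAs that encode caspase-1 substrates among the cytokines, Il1b and Il18, were therefore higher. Il18bp, which encodes a secreted antagonist of IL-18 and was read at the exon level only, was higher by 0.83 (adjusted p = 0.00225). Il1rl2, the receptor for IL-36, was lower (-0.63, SE 0.11, adjusted p = 0.0046). Il18r1 was higher by 0.19 (adjusted p = 0.0465), a call lost in 9 of 13 alternatives, and was dim in both groups (means 5.12 in KO-labelled and 4.93 in WT samples). Il1rap (-0.12) and Sigirr (-0.05) did not pass (adjusted p = 0.501 and 0.629). Of the 12 measured members of this list, 2 were higher, 2 lower and 8 did not pass. That share is near the 28.4% of all clusters called. The 8 that did not pass, Il1rap and Sigirr among them, were dim in both groups (below the median of all clusters, 6.72), where RMA compresses differences.

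**Figure D4:**
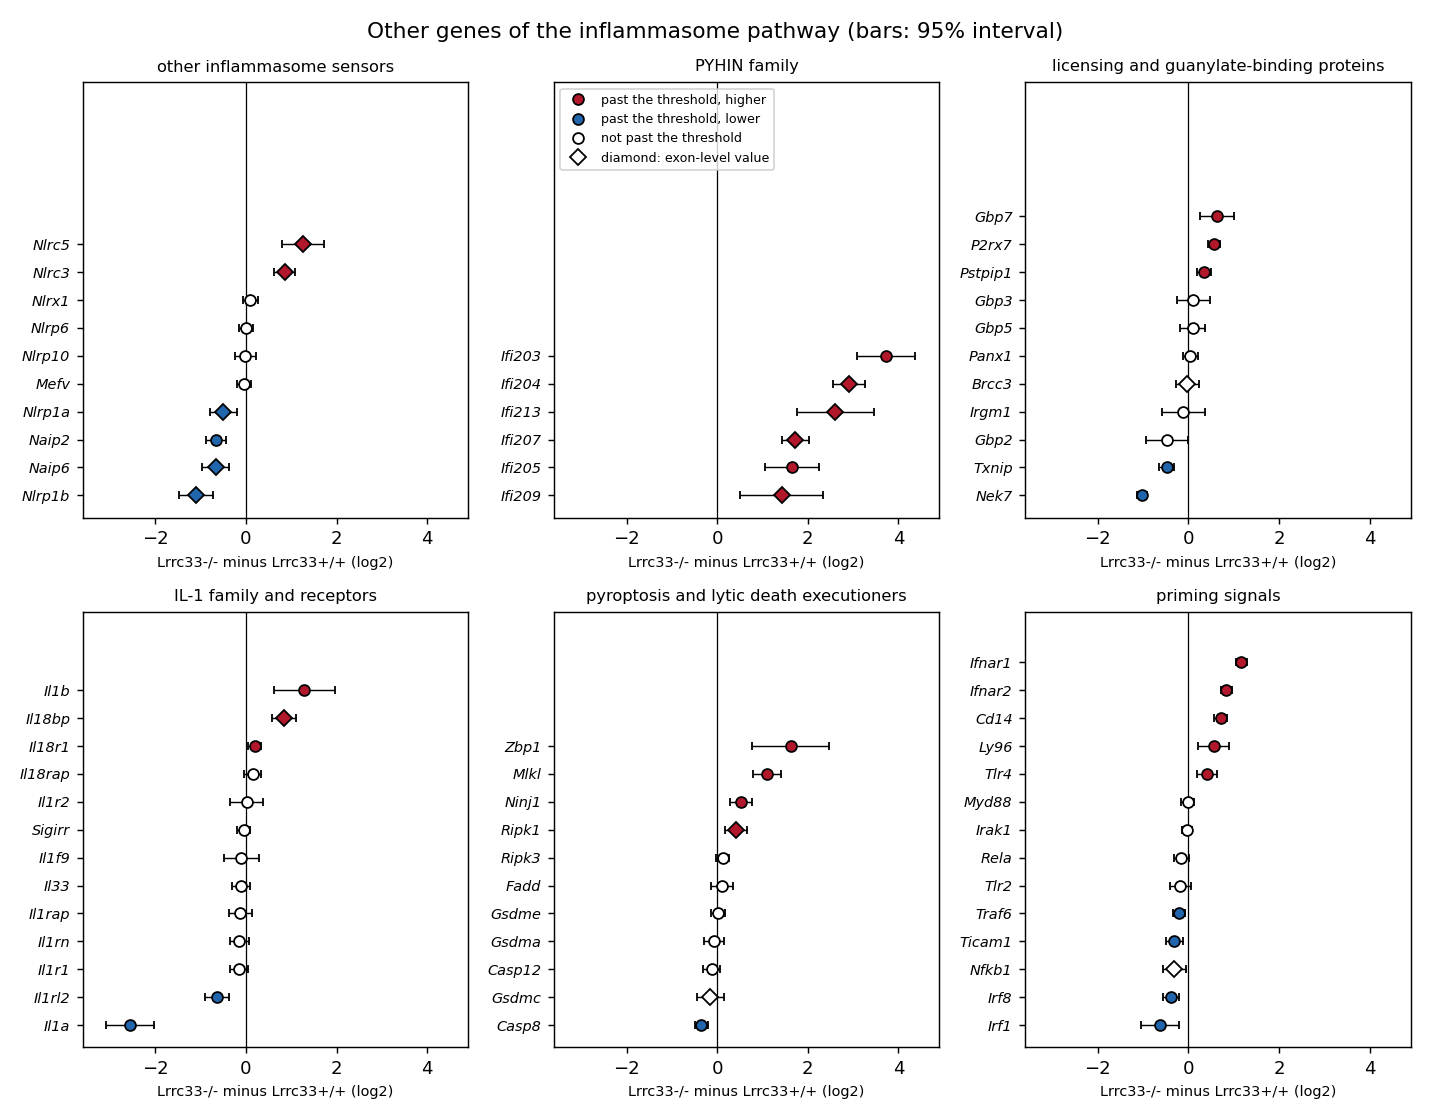
Difference in log2 level, Lrrc33-/- minus Lrrc33+/+, of the further genes of the inflammasome pathway in 6 lists; circles are gene-level clusters and diamonds are genes read at the exon level only, filled where they passed the test (red higher, blue lower) and open where they did not. The PYHIN genes all lie to the higher side, up to 3.73 for Ifi203, while Il1a has the largest fall at -2.55.

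Of 9 measured genes of pyroptosis and other lytic death, 3 were higher, 1 was lower and 5 did not pass. Over all clusters, 28.4% were called. Zbp1, a sensor of left-handed nucleic acids, was at 7.76, 7.73 and 9.09 in the KO-labelled samples against 6.56, 6.34 and 6.81 in the WT samples (1.62, SE 0.36, adjusted p = 0.0136), and 1.17 without KO-labelled replicate 3. Mlkl, the executioner of necroptosis, was higher by 1.10 (SE 0.13, 2.14-fold, adjusted p = 0.000911), with 0.60 and an adjusted p of 0.0543 when read as the median of its exon-level probesets. Mlkl was dim in both groups (means 6.52 in KO-labelled and 5.42 in WT samples, below the median of all clusters, 6.72). Ninj1, the protein that ruptures the membrane after pore formation, was higher by 0.52 (SE 0.10, adjusted p = 0.00759), a call lost with the mean of its exon-level probesets (adjusted p = 0.0784). Casp8 was lower (-0.35, SE 0.06, adjusted p = 0.00416). Ripk3 (0.12, adjusted p = 0.181) and Fadd (0.10, adjusted p = 0.517) did not pass.

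Of 13 measured genes of the priming signals, which raise sensor and cytokine transcripts before activation, 5 were higher, 4 lower and 4 did not pass. Over all clusters, 14.4% were higher and 14% lower. In the list, the lower count was 1 without KO-labelled replicate 3 or WT replicate 2, 2 without KO-labelled replicate 1 or 2, and 3 without WT replicate 1 or 3. The interferon receptor chains were both higher: Ifnar1 at 10.96, 10.96 and 10.87 in the KO-labelled samples against 9.77, 9.76 and 9.76 in the WT samples (1.17, SE 0.05, 2.24-fold, adjusted p = 7.6e-06), and Ifnar2 by 0.84 (SE 0.05, adjusted p = 3.3e-05). Cd14, the coreceptor that passes lipopolysaccharide to TLR4, was higher by 0.71 (SE 0.06, adjusted p = 0.000152). Irf1, an interferon-induced transcription factor, was lower (-0.64, SE 0.18, adjusted p = 0.0345), with WT samples spread from 9.09 to 9.85, and lost the call in 5 of 14 alternatives. Rela (-0.16, adjusted p = 0.147) and Myd88 (-0.02, adjusted p = 0.861) did not pass.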

How the data were processed

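The deposited values were log2 signals that the authors summarised with RMA, per the submitters' processing notes, at a gene level and at an exon level of the same 6 arrays (12 labelled columns). RMA corrects background, scales arrays to a common distribution and pulls dim signals together. RMA version, annotation build and probe positions: not given in the sources used here. Array medians were 6.70 to 6.76 at the gene level and 5.82 to 5.84 at the exon level, and precision is limited by how few arrays there are. The number of value columns mapped to no sample was 0.

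Names came from the platform annotation, updated through a RefSeq table: 15002 clusters had 1 symbol, 1013 several and 740 none, and at the exon level 321091, 7796 and 907200. Differences were tested with limma 3.58.1 in R 4.3.3 (lmFit, eBayes, two-sided, no covariate) over all features, adjusted by Benjamini-Hochberg, threshold 0.05. Exon usage was tested with diffSplice in genes with at least 3 probesets whose higher group mean reached the overall probeset median. The procedures were tested on simulated data, where diffSplice kept its false calls near the threshold with 1 spread per gene but not with a spread that differed by probeset. The 9 genes and all lists were chosen with earlier results of these data known. From each pathway list, up to 4 genes past the threshold with the largest change and up to 2 not past it with the highest mean were named. Same-numbered samples did not deviate together (r = -0.03, -0.01 and 0.04) more than differently numbered ones (r = -0.03 to 0.04). The main fit therefore used no pairing, though with 3 samples per group these values cannot exclude one. Alternatives were a second quantile normalization, median centring, a filter on dim features, a trended robust fit, array weights, exon-level gene values, a replicate block and leaving out each sample; for Nlrc4 and Naip5 the first 5 of these, and for Naip5 its clusters shared with Naip6, were added after seeing the data.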

Additional observations from a re-analysis of the deposited data

How the results depend on the processing

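Aim2 and Pycard kept direction and call in all 14 alternatives run for each, Nlrc4 in 13 and Naip5 in 15, including those added after seeing the data. Among the gene-level genes, 2 were higher as reported, against 0 with exon-level medians, 1 with exon-level means and 1 to 2 when samples were left out in turn. Of the 102 probesets, 8 were lower as reported, beside 2.16% of all probesets. The count was 21 without the dimmest features, where fewer are tested, 2 with the replicate block and 3 to 4 when samples were left out. Exon usage was called for 3 of the 9 genes as reported, beside 31.6% of 16692 genes tested. When samples were left out the count was 2 to 5. Without KO-labelled replicate 2, Naip5 (adjusted p = 0.00941) and Il18 (0.00579) were added, and without KO-labelled replicate 3, Naip5 (0.00758). The replicate block, on numbers not known to pair the samples, took away the calls of Nlrp3 (adjusted p = 0.066), Irf1 (0.0554) and Il18r1 (0.103). It also added exon usage of Il18 (0.0305). Of the further pathway genes at the gene level, 14 were higher and 8 lower with the block, against 15 and 10 as reported. Differences that changed sign belonged to genes that did not pass in either setting. A second quantile normalization gave 0.016 for Myd88, and exon-level medians gave 0.35 for Mefv and -0.060 for Fadd. Leaving out samples gave -0.054 to 0.018 for Myd88, -0.081 to 0.012 for Mefv, -0.35 to 0.040 for Irgm1, -0.0090 to 0.26 for Gbp3 and -0.083 to 0.0014 for Sigirr. The cause of these shifts was not tested. Dim probesets, such as those of Nlrc4 in WT, bound how far low levels can be resolved.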
